A study of Homo sapiens with 6 samples.

Results

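The genes described here encode the nuclear subunits of the mitochondrial respiratory chain and ATP synthase. Their members were chosen by name: every probe set whose gene name begins with NDUFA, NDUFB, NDUFC, NDUFS, NDUFV, UQCR, COX4, COX5, COX6, COX7, COX8 or ATP5, or is SDHB, SDHC, SDHD or CYC1. This gave 177 probe sets of 85 genes, out of 45033 probe sets and 23611 gene names on the array. Expression was measured in HEK293, an established line derived from human embryonic kidney, on 6 one-colour NimbleGen arrays, 2 in each of 3 groups. All cells were transfected for about 40 hours and then kept in conditioned medium for 7 hours. Cells with the control shRNA received either control medium (the first group) or Wnt3a medium (the second), and cells with an shRNA against SET8 received Wnt3a medium (the third). SET8 (KMT5A, named SETD8 on the array) is a histone H4 lysine methyltransferase. The design text calls the transfection siRNA in one place and shRNA in another; the sample labels say shRNA. None of the 6 arrays holds the SET8 shRNA in control medium, and the 2 shRNAs can be compared in Wnt3a medium alone. The labels do not state whether replicates came from separate cultures, and the p-values then cover only the variation among these arrays, which could be technical.

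The respiratory chain passes electrons from NADH through complex I, or from succinate through complex II, by way of coenzyme Q to complex III, then by cytochrome c to complex IV and oxygen. Complexes I, III and IV pump protons across the inner membrane, and ATP synthase uses the gradient to make ATP. Apart from complex II, the complexes are built from a catalytic core, partly encoded in mitochondrial DNA, and from nuclear-encoded core and accessory subunits. The assembly of those complexes thus draws on transcripts from both genomes. The array names used here are older than the current symbols for 20 of the member gene names: ATP5J is now ATP5PF, ATP5C1 is ATP5F1C, and NDUFA4, counted with complex I by its name, is COXFA4, a subunit associated with complex IV.

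The promoters below are a selection: between the shRNAs, NDUFA8, COX6B1 and ATP5J were among the members with the lowest log2 differences, and COX6B2 had the highest. NDUFC2 (-0.93), NDUFA5 (-0.86) and UQCRFS1 (-0.68) were also among the lowest and are not shown. For NDUFC2 no RefSeq promoter sequence was available here. The sequences are from RefSeq (build GRCh38.p14), 5′ to 3′ along the gene's own strand, from 100 bases before to 20 bases after the annotated start, with motif matches in capitals.
NDUFA8, chr9:122159760-122159879, minus strand: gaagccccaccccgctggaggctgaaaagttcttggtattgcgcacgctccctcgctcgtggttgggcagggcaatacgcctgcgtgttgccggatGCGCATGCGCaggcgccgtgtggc
COX6B1, chr19:35648223-35648342, plus strand: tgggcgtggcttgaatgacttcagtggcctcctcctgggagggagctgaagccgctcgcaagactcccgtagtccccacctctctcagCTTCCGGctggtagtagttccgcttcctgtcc
ATP5PF (ATP5J), chr21:25735035-25735154, minus strand: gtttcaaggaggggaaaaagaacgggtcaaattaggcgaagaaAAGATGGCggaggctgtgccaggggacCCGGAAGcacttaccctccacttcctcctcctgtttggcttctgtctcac
COX6B2, chr19:55354700-55354819, minus strand: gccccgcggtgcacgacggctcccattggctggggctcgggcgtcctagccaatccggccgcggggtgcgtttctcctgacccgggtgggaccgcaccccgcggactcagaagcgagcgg
The capitals mark the motif of NRF1 from -4 to 6 in NDUFA8, CCGGAAG (the ETS-family motif bound by GABP) on the opposite strand from -12 to -6 in COX6B1, and in ATP5PF the same motif from -30 to -24 and AAGATGGC (YY1) from -57 to -50. None of the 3 motifs matched in this window of COX6B2, which says only that these letters are not there. These factors are textbook regulators of nuclear genes for the chain, and a match is a description of the letters, not a site.

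Of the 85 member genes, 68 had a RefSeq promoter window of 250 bases before to 50 bases after the start. Searched on both strands, the NRF1 motif (the capitals in the NDUFA8 sequence, a palindrome) matched in 4 of the 68 windows (5.88%, against 1.36% of all 27305 windows of that length), CCGGAAG in 20 (29.4% against 10.7%) and AAGATGGC in 11 (16.2% against 3.03%). At least 1 of the 3 motifs was present in 32 member windows, 47.1% against 14.1% of all windows. No 2 matches overlapped in a member window. The windows of NDUFA5 and UQCRFS1, which were also lower between the shRNAs, matched none of the 3 motifs. Whether a motif goes with a difference was not tested.

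Before the members, the targeted gene was examined. SETD8 probe set AY064546 had log2 intensities of 11.03 and 10.75 in control medium, 11.20 and 10.53 in Wnt3a medium and 8.97 and 9.65 in SET8 shRNA, a difference of -1.56 (SE 0.34, limma adjusted p = 0.236) between the shRNAs. Probe set NM_020382 differed by -1.11 (SE 0.28, adjusted p = 0.326). For both probe sets the SET8 shRNA arrays lay below all 4 control shRNA arrays. Of 9 marker genes of the HEK293 line, among them VIM, KRT8 and NEFM, 8 were above their array's median in all 6 arrays. The lists of other cell types were mixed: the fibroblast genes COL1A1 and FBLN1, the muscle genes ACTA1, ACTC1, CKM and TNNT1, and the blood gene CD68 were also above the median in all 6 arrays. The fibroblast genes FAP, LUM, PDGFRA, PDGFRB and POSTN, the muscle genes MYH2, MYH7 and MYOG, and the blood genes CD3E, HBB and PTPRC were below it on all probe sets in all 6.

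Some of these markers differed between the groups at an unadjusted p under 0.05. Of all tested probe sets, 3.76% were higher and 3.41% lower between the shRNAs. For Wnt3a medium the shares were 1.61% and 0.529%, and from control medium to SET8 shRNA 6.48% and 4.07%. Between the shRNAs 5 of 18 HEK293-line probe sets were higher, among them NEFL (0.75) and LHX1 (0.68), and the muscle gene TNNT1 was higher by 0.82 (1.14 from control medium to SET8 shRNA). The blood genes CD68 (-1.07) and the near-identical HBA1 (-1.65) and HBA2 (-1.12) were lower; HBA2 was tested only through the control shRNA arrays, where it was high. For Wnt3a medium the fibroblast genes COL1A2 (-2.29) and COL3A1 (-0.85) were lower, and both were tested only through the control medium arrays. The HEK293-line gene LHX1 was also lower for Wnt3a medium (-0.68). That LHX1 probe set was above the array median only in control medium and in SET8 shRNA. In both comparisons it was thus tested through the groups where it was high. For Wnt3a medium the blood gene CD14 was higher (0.73), tested only through the arrays in Wnt3a medium. The number of genes tested was 4 of 11 for fibroblast, 5 of 10 for muscle and 4 of 7 for blood. The log2 of the summed level of each list in control medium, Wnt3a medium and SET8 shRNA was 14.67 to 14.80, 14.65 to 14.70 and 14.55 to 14.89 for fibroblast. For muscle it was 14.40 to 14.45, 14.17 to 14.41 and 14.53 to 14.59, and for blood 11.24 to 11.57, 11.54 to 11.64 and 10.81 in both SET8 arrays. For the HEK293 line it was 16.89 to 16.99, 16.84 to 16.95 and 17.03 to 17.07. Whether these bear on the members was not tested.

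The respiratory chain was highly expressed. Probe sets brighter than the array median in 2 or more of the 6 arrays were tested; 157 member probe sets of 80 genes passed, against 23808 of all 45033 probe sets. Among the members, 151 probe sets of 77 genes were above the median in all 6 arrays. The median log2 intensity of the tested members was 12.52 and 12.86 in control medium, 12.75 and 12.80 in Wnt3a medium, and 12.71 and 12.53 in SET8 shRNA, beside 10.27 to 10.31 for all tested probe sets. The spread between replicates of 1 group was as wide as that between groups. The 20 member probe sets that were not tested belong to 14 genes, and 5 genes had no tested probe set: COX6A2, COX7A1, COX7B2, COX8C and NDUFA4L2, isoforms known from muscle, testis or hypoxic cells.

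Wnt3a medium and control medium gave close values for nearly all of the chain. The median difference of the 157 members, Wnt3a minus control medium, was 0.02 on the log2 scale, beside 0.02 for all tested probe sets (after median centring -0.05 for both), and 154 members differed by less than 0.5. No member passed an adjusted p of 0.05, nor did any of the 23808 probe sets in limma's test, of which 510 had an unadjusted p under 0.05. At an unadjusted p under 0.05, 1 member was higher and 0 were lower, where 2.14% of all tested probe sets were called in either direction (1.61% higher, 0.529% lower). Both Wnt3a arrays lay above both control medium arrays for 12 members (12.0% of all probe sets did so) and below them for 4 (9.15% of all).

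SET8 shRNA arrays were slightly lower than control shRNA arrays over most of the chain, and much lower for NDUFA8. The median difference of the members was -0.15, beside 0.01 for all tested probe sets. A negative difference was found for 120 of 157 members, and for 11631 of all 23808 tested probe sets. Both SET8 arrays lay below both control shRNA arrays in Wnt3a medium for 50 members (31.8%, where 17.0% of all tested probe sets did so) and above them for 7 (4.46%, where 17.1% did). Of 49 genes with more than 1 tested probe set, 31 had negative differences on every probe set, 2 had positive differences on every one, and 16 were mixed. The same was not counted over all genes. Probe sets of 1 gene were read on the same arrays and may share sequence, so their agreement is not separate evidence. No member passed an adjusted p of 0.05, nor did any other probe set in limma's test, of which 1705 had an unadjusted p under 0.05. At an unadjusted p under 0.05, 6 members were lower and 0 higher: NDUFA8 (2 probe sets), NDUFA5, UQCRFS1, COX6B1 and ATP5J. That is 3.82% of the members, below the 7.16% of all tested probe sets called in either direction and close to the 3.41% called lower (3.76% were called higher).

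The size of the small shift depended on single arrays. Without SET8 shRNA replicate 2 the median of the members was -0.05, and without SET8 shRNA replicate 1 it was -0.31. With replicate 2 left out, the remaining SET8 array lay below both Wnt3a arrays for 65 members (41.4%, against 28.5% of all tested probe sets), and with replicate 1 left out for 106 (67.5% against 32.2%). Without Wnt3a medium replicate 2 of control shRNA the median was -0.06. Both SET8 arrays then lay below the remaining Wnt3a array for 62 members (39.5%), little more than the 36.3% of all tested probe sets. Without Wnt3a medium replicate 1 the median was -0.21 and the count 95 (60.5% against 36.3%).

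**Figure D1:**
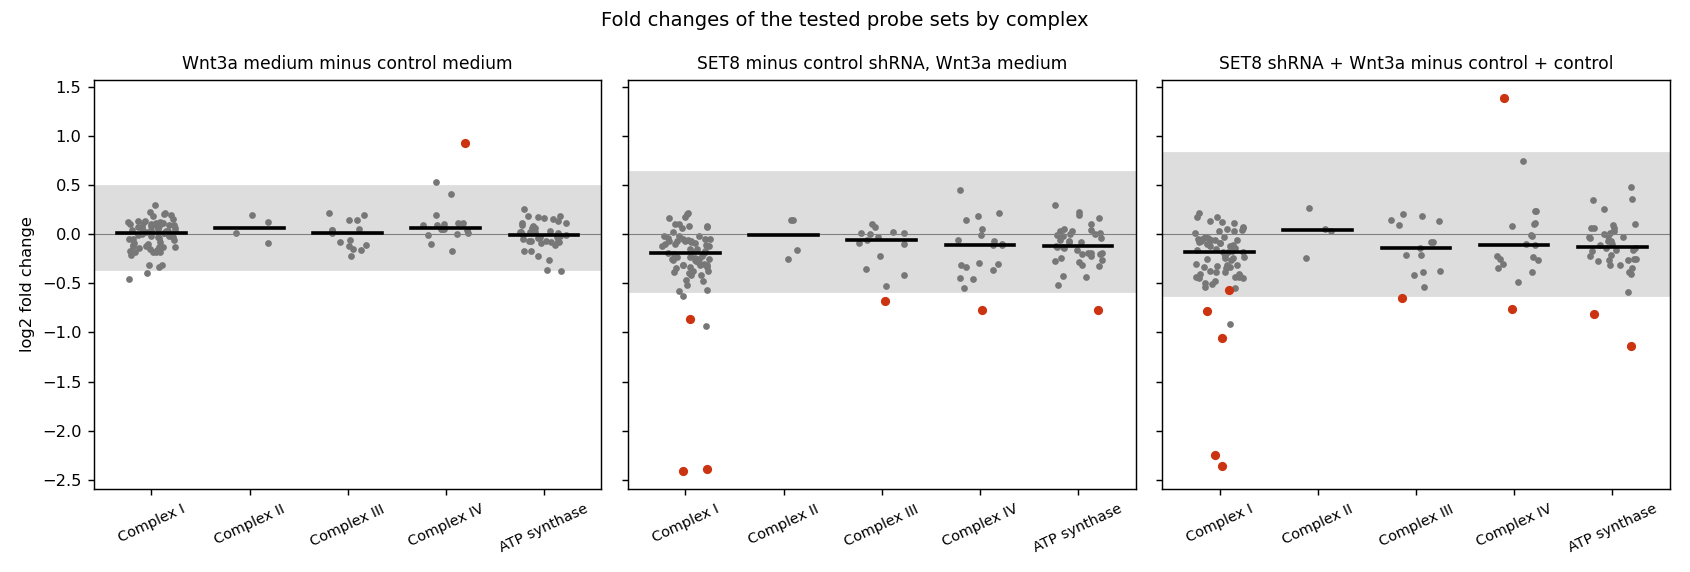
Log2 fold change of each tested probe set by complex in the 3 comparisons. Points are probe sets, red where the unadjusted limma p is under 0.05, black bars are medians, and the grey band spans the 5th to 95th percentile of all 23808 tested probe sets; both NDUFA8 probe sets lie far below the band in the centre and right panels, and most other members lie within it.

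SET8 shRNA with Wnt3a medium was also compared with control shRNA in control medium, a contrast that shares its SET8 arrays with the previous one and its control arrays with the first. The members' median was -0.15 (0.02 for all tested probe sets), and 117 of 157 differences were negative (11420 of 23808 over all tested probe sets). Both SET8 arrays lay below both control medium arrays for 36 members (22.9%, beside 18.2% of all tested probe sets) and above them for 9 (5.73%, beside 21.5%). At an unadjusted p under 0.05, 10 members were lower (6.37%, where 4.07% of all were) and 1 was higher (0.637%, where 6.48% of all were); in either direction 10.6% of all tested probe sets were called. An adjusted p under 0.05 was reached by 12 probe sets of 23808 (0.0504%), and none was a member. Without control medium replicate 2 the members' median was 0.02, so the direction of this small shift turned on that array. Both SET8 arrays then lay below the remaining control array for 26.1% of the members, against 34.2% of all tested probe sets. Without control medium replicate 1 these shares were 64.3% and 34.9%. They were 30.6% and 30.6% without SET8 shRNA replicate 2, and 63.1% and 33.2% without SET8 shRNA replicate 1.

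Complex I, the NADH dehydrogenase, had the lowest median among the complexes in SET8 shRNA, at -0.19 over 73 tested probe sets of 38 genes. Of these, 62 had negative differences (11631 of all 23808 tested probe sets did). An unadjusted p under 0.05 was found for 3, all lower (3.41% of all tested probe sets were). Both SET8 arrays lay below both Wnt3a arrays of control shRNA for 27 of its probe sets (17.0% of all tested probe sets did so) and above them for 2 (17.1% of all). In Wnt3a medium its median difference from control medium was 0.01, with none at an unadjusted p under 0.05 in either direction (2.14% of all tested probe sets were). These complexes differ in the number of probe sets, and the difference between them was not tested.

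**Figure D2:**
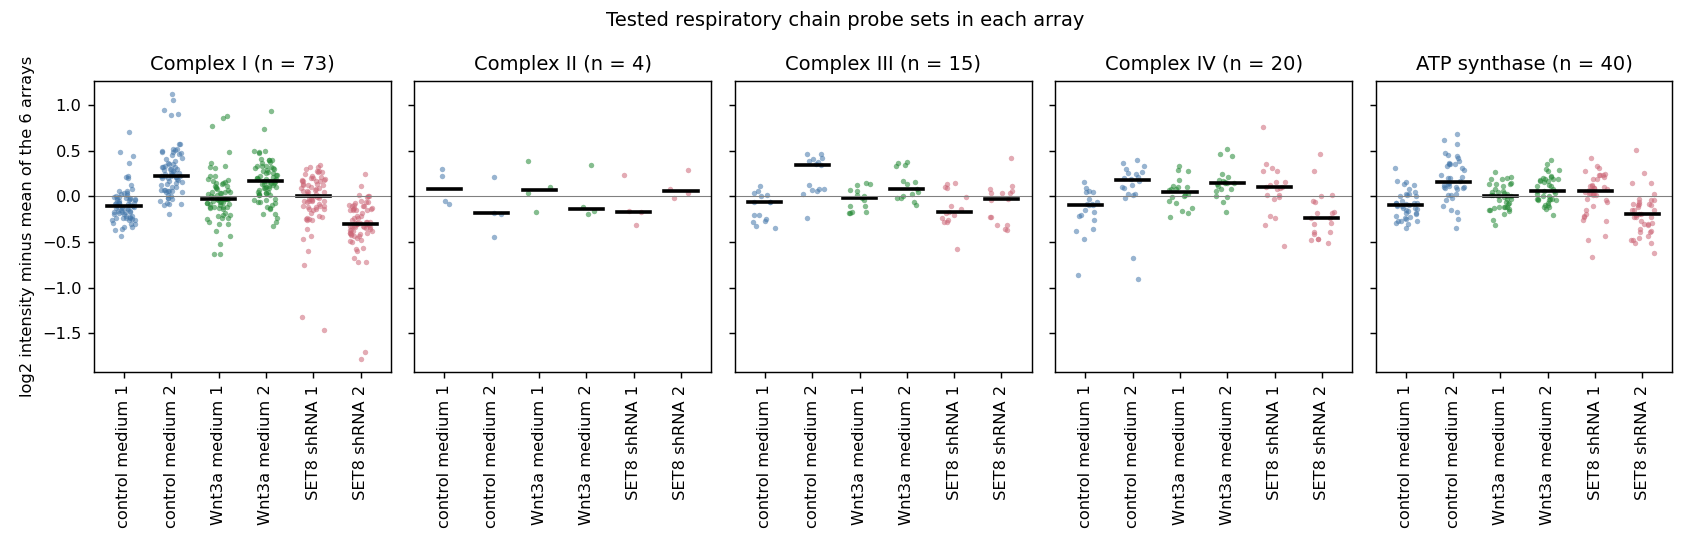
Log2 intensity of each tested member probe set minus its own mean over the 6 arrays, by array and complex. Points are probe sets and black bars are medians; replicate 2 is above replicate 1 in control medium for complexes I, III, IV and ATP synthase, and complex I is lowest in SET8 shRNA replicate 2.

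NDUFA8, an accessory subunit of complex I on the side of the intermembrane space, was the member that differed most. Its gene lies at chr9:123946160-123961823 (hg18, probe set BC001016). That probe set read 11.05 and 11.62 in control medium, 11.44 and 11.30 in Wnt3a medium, and 9.10 and 8.86 in SET8 shRNA. The second probe set, NM_014222, read 10.84 and 11.34, 11.17 and 11.33, and 9.07 and 8.62 in the same order. In both, the 4 control shRNA arrays lay together and the SET8 arrays lay well below all of them, with no overlap. Between the shRNAs the differences were -2.39 (SE 0.27, 5.25-fold lower, unadjusted p = 3.86e-05, adjusted p = 0.0895) and -2.41 (SE 0.28, 5.30-fold lower, unadjusted p = 4.81e-05, adjusted p = 0.0895). Against control medium they were -2.36 (adjusted p = 0.0506) and -2.25 (adjusted p = 0.0546), while Wnt3a medium alone gave 0.03 and 0.16. The size ranged only from -2.52 to -2.27 and from -2.63 to -2.18 over the settings tried, but the adjusted p depended on the setting. Between the shRNAs it was under 0.05 with the 4 arrays of the comparison alone and with an intensity trend. It was not under 0.05 in the other planned settings that left out no array. It was also under 0.05 with a replicate block in which the SET8 numbers were exchanged, chosen after the data were seen. The probe set of the adjacent gene MORN5, looked up after these values were seen, was below the median of every array and was not tested.

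**Figure D3:**
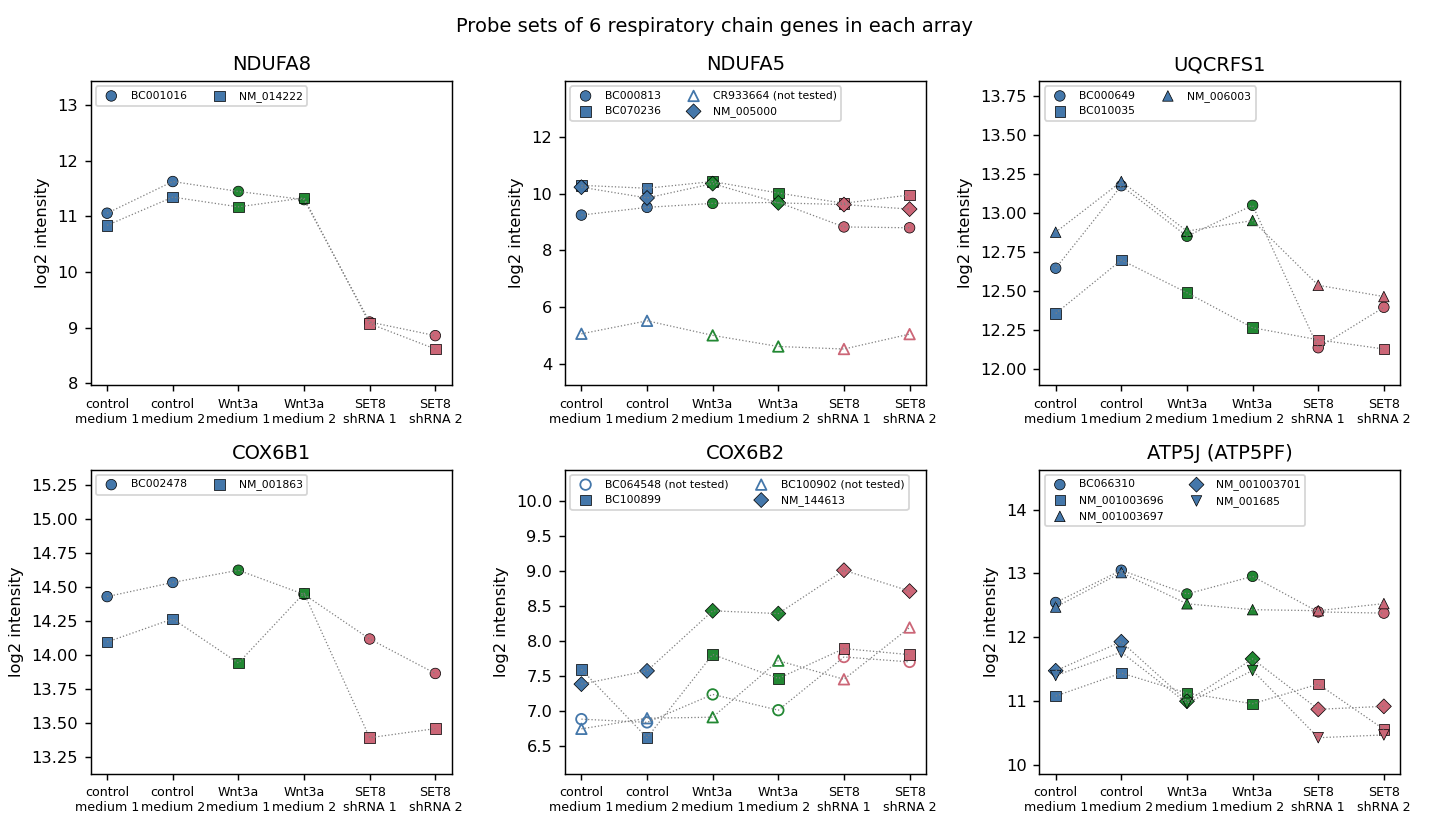
Log2 intensity of every probe set of NDUFA8, NDUFA5, UQCRFS1, COX6B1, COX6B2 and ATP5J in each array; each marker shape is 1 probe set, open markers were not tested, and the vertical scales differ between panels. Both NDUFA8 probe sets lie between 8.62 and 9.10 in SET8 shRNA and at 10.84 or above elsewhere, while COX6B2 probe set NM_144613 is lowest in control medium.

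NDUFA5, an accessory subunit of the peripheral arm of complex I, read 9.24 and 9.52 in control medium, 9.65 and 9.69 in Wnt3a medium, and 8.83 and 8.80 in SET8 shRNA on probe set BC000813. The SET8 arrays lay below the 4 others, with a difference of -0.86 between the shRNAs (SE 0.23, unadjusted p = 0.00636, adjusted p = 0.353). The other tested probe sets of the gene, BC070236 and NM_005000, differed by -0.42 and -0.48. NDUFB6, an accessory subunit of the membrane arm, differed between the shRNAs by -0.57, -0.46, -0.52 and -0.56 on its 4 probe sets. On probe set BC029247 it read 11.12 and 11.39 in control medium, 11.04 and 10.83 in Wnt3a medium, and 10.78 and 10.16 in SET8 shRNA. The step from control medium to SET8 shRNA was -0.78 on that probe set (SE 0.28, unadjusted p = 0.0277, adjusted p = 0.388), with no overlap between these groups.

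NDUFC2, also of the membrane arm, read 8.79 and 8.15 in control medium, 8.94 and 7.76 in Wnt3a medium, and 7.32 and 7.51 in SET8 shRNA. The SET8 arrays were the lowest, but the arrays in Wnt3a medium with control shRNA differed from each other by more than the groups did. The difference between the shRNAs was -0.93 (SE 0.41, unadjusted p = 0.058), and against control medium it was -1.05 (unadjusted p = 0.0374, adjusted p = 0.425). This probe set exceeded the array median in only 4 arrays, those of control shRNA, so it entered the test through the groups where it was high. In all, 6 member probe sets passed in only some arrays, and the 5 others belong to NDUFC1, COX6B2 (2), ATP5G2 and ATP5S.

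Most other members of complex I lay closer to zero. Among the core subunits that carry iron-sulfur clusters or flavin, values were -0.22 and 0.10 for NDUFV1 and 0.02 and -0.12 for NDUFV2 between the shRNAs. NDUFS1, the largest of them, gave 0.22 (SE 0.25), while NDUFS8 gave -0.23 and NDUFS7 gave -0.04, -0.07, -0.26 and -0.26. NDUFA11, an accessory membrane subunit, gave 0.20 and -0.02. Among the lower members in Wnt3a medium were NDUFB6 (-0.32 on BC029247, SE 0.28, and -0.40 to 0.12 on its other probe sets), NDUFB1 (-0.45, SE 0.46, second probe set 0.01), NDUFA6 (-0.31, SE 0.36, second probe set -0.05) and NDUFA9 (-0.21, SE 0.23). Among the higher were NDUFA5 (0.29 on BC000813, SE 0.23, and -0.02 on both other probe sets) and NDUFB8 (0.22, SE 0.26). The unadjusted p of these lay between 0.237 and 0.426.

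Complex II, succinate dehydrogenase, had the median nearest zero between the shRNAs (-0.01, and 0.07 for Wnt3a medium), from only 4 tested probe sets of 3 genes. SDHB, its iron-sulfur subunit, read 12.95 and 12.86 in control medium, 13.14 and 12.92 in Wnt3a medium, and 13.28 and 13.07 in SET8 shRNA. The SET8 arrays lay above both control medium arrays, by 0.27 (SE 0.23, unadjusted p = 0.282), and overlapped with the Wnt3a arrays. The membrane anchors gave -0.16 and -0.25 (SDHC) and 0.14 (SDHD) between the shRNAs. SDHA, the flavin subunit that the choice of names leaves out, differed by -0.29 (SE 0.24).

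In complex III, the cytochrome bc1 complex, the lowest member was UQCRFS1, the Rieske iron-sulfur protein that passes electrons to cytochrome c1. Its probe set BC000649 read 12.65 and 13.17 in control medium, 12.85 and 13.05 in Wnt3a medium, and 12.14 and 12.39 in SET8 shRNA. All 3 probe sets of the gene were lower in both SET8 arrays than in any control shRNA array. The differences between the shRNAs were -0.68 (SE 0.27, unadjusted p = 0.0379, adjusted p = 0.655), -0.42 for NM_006003 and -0.22 for BC010035. UQCRQ, a small subunit next to cytochrome b, gave -0.36 and -0.53, without passing the unadjusted threshold. The core proteins differed little: UQCRC1 gave values from -0.09 to 0.01 on 3 probe sets, UQCRC2 gave 0.08, and the hinge protein UQCRH gave -0.05 to 0.11. Over the 15 tested probe sets the median was -0.05, with 1 lower and 0 higher at an unadjusted p under 0.05. Of all tested probe sets, 3.41% were lower and 3.76% higher.

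In complex IV, cytochrome c oxidase, 2 paralogous genes stood at opposite ends. COX6B1, the ubiquitous form of the subunit that bridges the dimer on the intermembrane side, read 14.10 and 14.27 in control medium, 13.94 and 14.45 in Wnt3a medium, and 13.39 and 13.46 in SET8 shRNA on probe set NM_001863. The SET8 arrays were below all others, by -0.77 between the shRNAs (SE 0.26, unadjusted p = 0.0194, adjusted p = 0.53), and probe set BC002478 gave -0.54 (SE 0.23, unadjusted p = 0.0503) with the SET8 arrays again below all others. The gene lies at chr19:40830994-40841524 (hg18).

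COX6B2, the form known from testis, was higher in Wnt3a medium and highest in SET8 shRNA. Probe set NM_144613 (chr19:60552463-60557876, hg18) read 7.38 and 7.57 in control medium, 8.43 and 8.39 in Wnt3a medium, and 9.01 and 8.71 in SET8 shRNA. The groups did not overlap and stood in that order. The differences were 0.93 for Wnt3a medium (SE 0.24, 1.91-fold, unadjusted p = 0.00499, adjusted p = 1.0), 0.45 between the shRNAs (unadjusted p = 0.0957) and 1.38 from control medium to SET8 shRNA (SE 0.24, 2.60-fold, unadjusted p = 0.000523, adjusted p = 0.092). With all arrays of the comparison kept, the last was under an adjusted p of 0.05 in 1 alternative alone. That was a replicate block with the SET8 numbers exchanged, chosen after the data were seen. NM_144613 was above the array median only in the 4 Wnt3a medium arrays, so it was tested through the groups where it was high. Probe set BC100899 gave 0.53, 0.21 and 0.74 in the same 3 comparisons, with a control medium array (7.59) above a Wnt3a array (7.46). BC100899 exceeded the array median only in Wnt3a medium replicate 1 and in both SET8 shRNA arrays. It was thus also tested through arrays where it was high. The untested BC064548 and BC100902 gave 0.87 and 1.0 from control medium to SET8 shRNA in a fit without the filter. All 4 probe sets were thus higher in SET8 shRNA than in control medium on average, though none was above the array median in control medium.

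Of the other tissue-restricted isoforms only COX4I2, the lung form of subunit IV, was bright enough to be tested. It read 8.42 and 8.74, 8.35 and 8.94, and 8.16 and 8.24 in the 3 groups and gave -0.45 between the shRNAs (SE 0.28, unadjusted p = 0.153). Its ubiquitous partner COX4I1 gave -0.06, -0.11 and -0.11 on 3 probe sets. COX6A1 gave -0.33, COX8A -0.36, COX7B -0.30 and 0.05, and COX7A2 from -0.45 to -0.11 over 3 probe sets, none at an unadjusted p under 0.05. NDUFA4, the ubiquitous partner of NDUFA4L2, gave -0.10, 0.17 and -0.09. COX7C, a small membrane subunit, was positive at 0.18 (SE 0.24). In Wnt3a medium COX7B gave 0.41 (SE 0.26, unadjusted p = 0.157) on BC018386 and 0.05 on its second probe set, and COX7A2 gave -0.01 to 0.19.

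In ATP synthase, ATP5J (coupling factor F6 of the peripheral stalk, chr21:26018661-26029836, hg18) was the lowest member. Probe set NM_001685 read 11.40 and 11.77 in control medium, 10.97 and 11.48 in Wnt3a medium, and 10.43 and 10.47 in SET8 shRNA. The SET8 arrays were lowest, while the Wnt3a and control medium arrays overlapped. The difference was -0.78 between the shRNAs (SE 0.27, unadjusted p = 0.0236, adjusted p = 0.576) and -1.14 from control medium (unadjusted p = 0.00378, adjusted p = 0.168). The 4 other probe sets of the gene gave -0.44, -0.43, -0.13 and -0.01 between the shRNAs, so the sign was shared and the size was not. These probe sets cover transcript variants of 1 locus and may share sequence.

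Subunits of the catalytic head and central stalk gave values on both sides of zero. ATP5C1, the gamma subunit of the central stalk, gave 0.30, 0.22 and 0.19 between the shRNAs and 0.48, 0.35 and 0.35 from control medium to SET8 shRNA, without passing the unadjusted threshold (lowest unadjusted p = 0.114). ATP5B, the catalytic beta subunit, read 13.79 and 13.72, 13.78 and 13.76, and 13.78 and 13.72 in the 3 groups, with a difference of 0.02 for Wnt3a medium and -0.02 between the shRNAs. ATP5E, the epsilon subunit, gave -0.51, -0.31 and -0.32. ATP5G3, a gene for the ring subunit c, gave 0.25 from control medium to SET8 shRNA, with a range of -0.03 to 0.54 when arrays were left out. Over the 40 tested probe sets of 14 genes the median between the shRNAs was -0.12, with 29 negative (11631 of 23808 over all tested probe sets). In Wnt3a medium ATP5J2, a membrane subunit, spanned -0.17 to 0.26 over 6 probe sets.

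The prefixes also take in 5 genes classed here as no subunit of a complex: NDUFAF1 (a complex I assembly factor), COX7A2L, COX4NB, ATP5S and ATP5L2. Their tested probe sets gave -0.50, -0.39, 0.08, -0.34 and 0.09 between the shRNAs. ATP5S read 8.14 and 8.77 in control medium, 7.67 and 8.15 in Wnt3a medium, and 7.30 and 7.84 in SET8 shRNA, which is -0.88 from the first to the last group (SE 0.33, unadjusted p = 0.0309, adjusted p = 0.399). Its SET8 arrays lay below both control medium arrays and overlapped with those in Wnt3a medium. Without these genes the members' median between the shRNAs was -0.14.

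The 2 arrays of a group differed in the same direction over most of the chain, and this bears on every small difference above. In control medium, replicate 2 was above replicate 1 for 131 of 157 members (83.4%, against 48.0% of all tested probe sets), with a median of 0.33. In Wnt3a medium it was above for 102 (65.0% against 49.8%, median 0.13). In SET8 shRNA it was above for only 31 (19.7% against 50.7%, median -0.27). In control medium and in SET8 shRNA these medians are larger in size than the members' median difference between the shRNAs.

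The same gaps ran with genomic span. Member probe sets span a median of 9093 bases of the genome, and all tested ones 17404. Among all tested probe sets under 5 kb, the median of replicate 2 minus replicate 1 was 0.09 in control medium, 0.13 in Wnt3a medium and -0.11 in SET8 shRNA, and for spans of 20 to 100 kb it was -0.10, -0.10 and 0.09. For the 31 members under 5 kb the medians were 0.41, 0.21 and -0.37. After each array was corrected for span, the members' median between the shRNAs was -0.14. The part of RNA quality or labelling in these gaps was not tested. In a bulk extract, less RNA per cell and fewer cells that express a gene cannot be told apart.

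**Figure D4:**
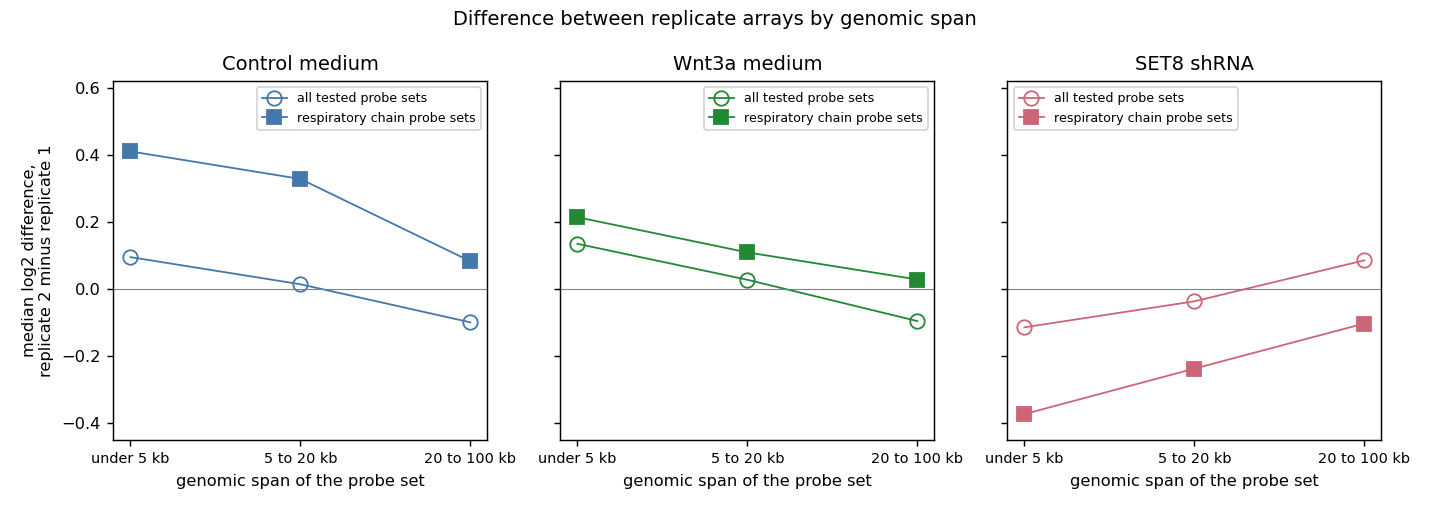
Median log2 difference between the 2 arrays of each group, replicate 2 minus replicate 1, for probe sets in 3 classes of genomic span. Open circles are all tested probe sets and filled squares the respiratory chain; both slope downward in control and Wnt3a medium and upward in SET8 shRNA, and the chain lies farther from zero at short spans.

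Genes of the chain's surroundings that are not members were described from lists of known roles. The list of assembly factors, which also holds the subunit SDHA, had 68 tested probe sets of 38 genes. Between the shRNAs 9 were lower and 2 higher at an unadjusted p under 0.05, with a median of -0.28. Several of the lower ones are probe sets of the same genes, COX20 and LYRM7, and both higher ones are of TIMMDC1. Both SET8 arrays lay below both control shRNA arrays in Wnt3a medium for 31 of the 68. Over all tested probe sets the shares were 3.41% lower, 3.76% higher and 17.0% below without overlap. None of the list passed an adjusted p of 0.05 in this comparison. TIMMDC1, a membrane assembly factor of complex I, read 9.12 and 9.23 in control medium, 9.36 and 8.96 in Wnt3a medium, and 10.61 and 10.27 in SET8 shRNA on NM_016589. Its SET8 arrays lay above the 4 others, by 1.28 between the shRNAs (SE 0.26, unadjusted p = 0.00142, adjusted p = 0.204), and by 1.23 on its second probe set.

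The lower assembly factors included LYRM7, the chaperone that holds the Rieske protein UQCRFS1 before its insertion. Probe set BC022429 read 10.12 and 9.61, 10.27 and 10.02, and 9.17 and 8.68 in the 3 groups, a difference of -1.22 between the shRNAs (SE 0.29, unadjusted p = 0.00376, adjusted p = 0.298). The SET8 arrays did not overlap with the others, and the gene's other tested probe sets gave -0.91 and -1.10, although both passed the filter only through control shRNA arrays, where they were high. COX20, a chaperone of complex IV, read 12.50 and 12.85, 12.56 and 12.96, and 11.68 and 11.83 on BC062419 (-1.0, SE 0.26, adjusted p = 0.336), with -0.72 and -0.78 on its other probe sets. COX15, which makes heme A for complex IV, gave -0.78 (SE 0.25, adjusted p = 0.488) and -0.39.

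**Figure D5:**
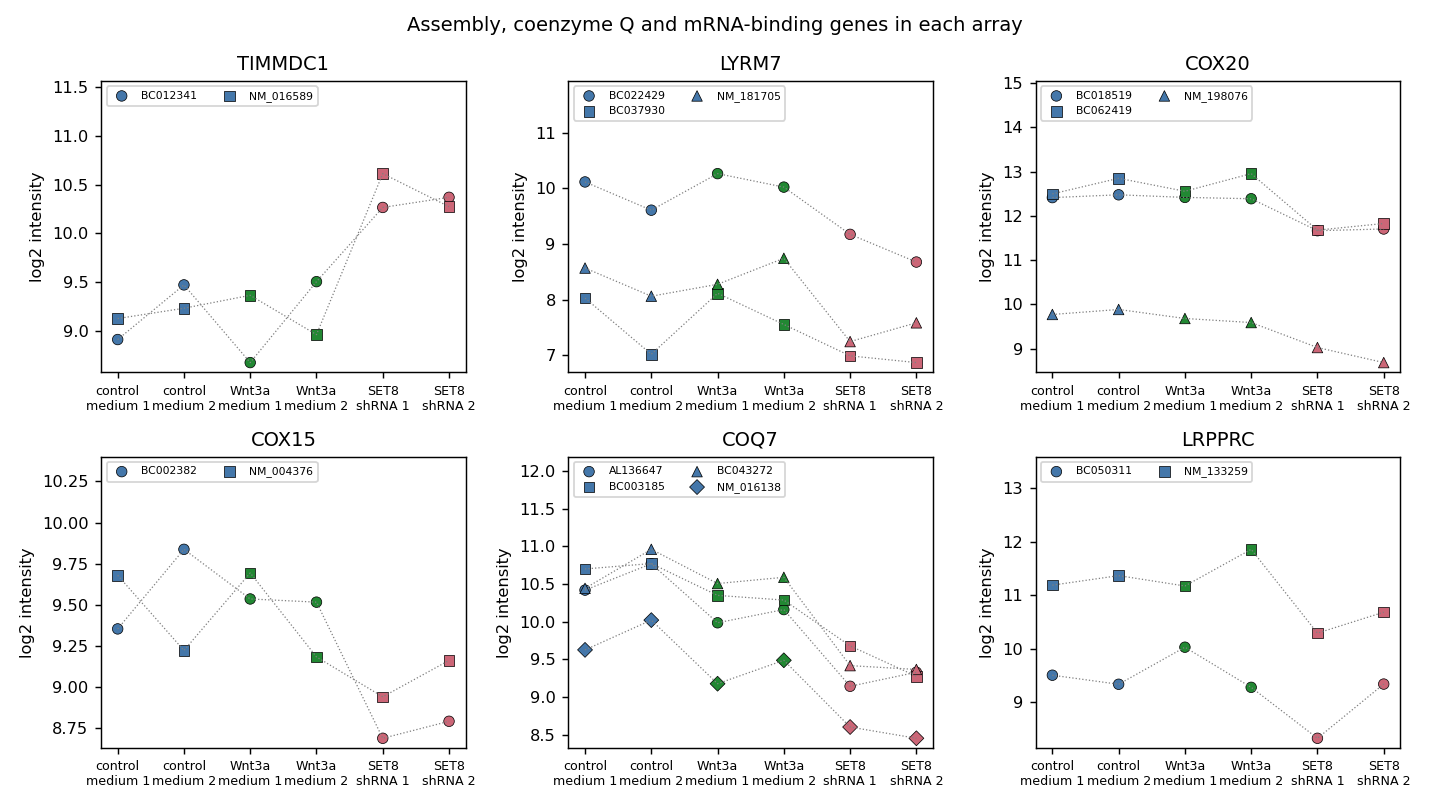
Log2 intensity of each tested probe set of TIMMDC1, LYRM7, COX20, COX15, COQ7 and LRPPRC in each array; marker shapes are probe sets and vertical scales differ. The SET8 shRNA arrays are highest for TIMMDC1 and lowest for LYRM7 probe set BC022429, COX20 and COQ7.

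Among 45 tested probe sets for electron carriers and adenine nucleotide transport, 5 were lower and 0 higher between the shRNAs at an unadjusted p under 0.05, where 3.41% and 3.76% of all tested probe sets were. Of these 5, 4 are the probe sets of 1 gene, COQ7, a hydroxylase of coenzyme Q synthesis. BC043272 read 10.44 and 10.96 in control medium, 10.51 and 10.59 in Wnt3a medium, and 9.42 and 9.37 in SET8 shRNA (-1.16, SE 0.26, unadjusted p = 0.00248, adjusted p = 0.25); the others gave -0.84, -0.84 and -0.80. The SET8 arrays of COQ7 lay below the rest on every probe set. CYCS, cytochrome c, gave -1.03 on NM_018947 (SE 0.26, adjusted p = 0.316) but 0.06, 0.02 and 0.09 on its 3 other probe sets, which disagree with it. COQ9, a lipid-binding partner of COQ7, gave -0.83 from control medium to SET8 shRNA (SE 0.26, unadjusted p = 0.0151, adjusted p = 0.307).

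Regulators of mitochondrial biogenesis had 31 tested probe sets, with 1 lower and 0 higher between the shRNAs at an unadjusted p under 0.05. Of all tested probe sets, 3.41% were lower and 3.76% higher. The lower one was LRPPRC, which stabilises mitochondrial mRNAs, at 11.19 and 11.37, 11.17 and 11.86, and 10.29 and 10.68 on NM_133259 (-1.03, SE 0.30, adjusted p = 0.429); its second probe set gave -0.82, with an overlap between the groups. In Wnt3a medium TFB1M, a mitochondrial rRNA methyltransferase, gave 0.74 (SE 0.23, unadjusted p = 0.0129, adjusted p = 1.0) and 0.20 on its second probe set; the first was above the array median only in the 4 Wnt3a medium arrays, so it was tested through the groups where it was high. GABPA and PPARGC1A were below the median of every array. The 32 tested probe sets of the TCA cycle and pyruvate dehydrogenase had 0 lower and 0 higher between the shRNAs, and a median of -0.15, close to that of the chain. From control medium to SET8 shRNA, 1 probe set each of SUCLG2 (-0.72), IDH2 (-0.60) and OGDH (-0.76) had an unadjusted p under 0.05, while their second probe sets gave -0.50, -0.29 and 0.36. Mitochondrial ribosomal proteins had 174 tested probe sets, with 2 lower, 4 higher and a median of -0.11 between the shRNAs. Both counts are smaller shares than the 3.41% lower and 3.76% higher of all tested probe sets. The probe set with the highest difference was that of MRPL47, at 0.92 (SE 0.31, adjusted p = 0.549).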

How the data were processed

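Per the submitters' processing notes, the authors summarised each array with RMA (robust multi-array average); version and settings are not given in the sources used here. They deposited 1 linear intensity per probe set and array, from 3 probes for nearly all sets, with hg18 positions. They were log2-transformed here without an offset. For arrays, the number of arrays limits the precision. Groups and replicate numbers came from the sample titles. Probe sets above their array's 50th percentile in at least 2 arrays were tested with limma 3.58.1 (lmFit, eBayes) in R 4.3.3 on all 6 arrays (3 residual and 4.32 prior degrees of freedom), with Benjamini-Hochberg adjustment over 23808 probe sets at 0.05. No test of 2 arrays against 2 for a single value was made. The script was tested on simulated data.

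The members and lists were chosen with earlier results of these data known. Genes were named by rule: in each comparison the 6 tested members of smallest unadjusted p on each side, 1 probe set per gene; NDUFA8; the 2 genes per complex with the smallest 3-group F-test p; tissue isoforms and their partners; and from the lists up to 4 genes per comparison with an unadjusted p under 0.05. NDUFS7, NDUFS8, NDUFV1, NDUFV2, UQCRC1, UQCRC2, UQCRH, ATP5B and SDHA were added after their values were seen, as core subunits. All 177 member probe sets matched the RefSeq gene table by gene ID. Alternatives were the filter, the arrays in the fit, replicate number as a block, median centring, quantile normalisation, an intensity trend, a robust prior, a span correction, 1 probe set per gene, subunits only, and each array left out. A replicate block with the SET8 numbers exchanged was added after the data were seen. The deposited standard errors were not used, since their scale is not stated.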

Additional observations from a re-analysis of the deposited data

How the results depend on the processing

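The members' median difference kept its sign under every alternative between the shRNAs; from control medium to SET8 shRNA it was positive only without control medium replicate 2 (0.019). With arrays left out in turn, it ranged from -0.31 to -0.052 between the shRNAs, from -0.30 to 0.019 from control medium to SET8 shRNA, and from -0.13 to 0.15 for Wnt3a medium, where median centring gave -0.05. Only 2 arrays per group limit all of this, and the causes of the changes below were not tested.

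Of all probe sets, those with an adjusted p under 0.05 from control medium to SET8 shRNA numbered 12, against 0 with no filter, 52 with a filter at the 60th percentile, 230 with the 4 arrays of the comparison alone, 6 after quantile normalisation, 31 with an intensity trend, 2 with a robust prior, 3 after the span correction, 30 with 1 probe set per gene, and 0 to 274 with an array left out. Between the shRNAs the count was 0, against 28 with 4 arrays, 15 with a trend and 0 to 31 with an array left out. For Wnt3a medium it was 0, against 2 with the 60th percentile filter, 2 with a trend and 2 with 1 probe set per gene, and 0 with each array left out. Members with an unadjusted p under 0.05 numbered 1 for Wnt3a medium (2 with no filter, 0 with the 60th percentile filter, 1 to 5 with an array left out), 6 between the shRNAs (1 with 1 probe set per gene, 3 to 8 with an array left out) and 11 from control medium to SET8 shRNA (5 with 1 probe set per gene, 5 to 16 with an array left out).

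Deviations of same-numbered arrays from their group means correlated at 0.75, -0.29 and -0.29 for control with Wnt3a medium and for each of these with SET8 shRNA, so equal numbers deviated together in the first pair and not across all 3 groups. With replicate number as a block, 0 probe sets had an adjusted p under 0.05 in each comparison, and 2, 8 and 12 members had an unadjusted p under 0.05 for Wnt3a medium, between the shRNAs and from control medium to SET8 shRNA. With the SET8 numbers exchanged, 3, 182 and 792 of all tested probe sets passed the adjusted threshold, and 1, 14 and 18 members had an unadjusted p under 0.05. That alternative was chosen after the data were seen, as was leaving out arrays in the counts of non-overlap. In the main fit 2.14%, 7.16% and 10.6% of all tested probe sets had an unadjusted limma p under 0.05. Under the alternatives this share was not counted, so the member counts here and in the preceding paragraph cannot be set against it.

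Single genes turned sign in small differences: for Wnt3a medium NDUFB1 ranged from -1.03 to 0.13, NDUFA6 from -0.67 to 0.053, NDUFA8 BC001016 from -0.25 to 0.32 and NDUFA8 NM_014222 from -0.095 to 0.41 with arrays left out, and ATP5G3 from -0.035 to 0.54 from control medium to SET8 shRNA. Median centring gave -0.037 for NDUFA8 BC001016 in Wnt3a medium.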
